A study of Mus musculus with 20 samples.

Results

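The transcripts of 9 complement genes were followed in mouse macrophages that were given lipopolysaccharide (LPS). The genes were C1qa, C1qb, C1qc, C3, Cfb, Cfp, C3ar1, C5ar1 and Serping1, taken by symbol, and every probe that the array files name for them was used. That gave 11 probes of 39429, with 2 each for C3 and Serping1, and all 9 genes were among the 21963 genes tested. The cells were grown from bone marrow of C57BL/6 mice in medium conditioned by L929 cells as a source of M-CSF, and were kept without serum during the experiment. By their labels they were TRIF-KO, MyD88-KO, double-KO (both genes) or wild-type, and the labels give no allele, age or number of animals. The dose of LPS, from Salmonella minnesota, was 200 ng/mL, and cells were taken after 1, 2, 4, 8 or 16 h. Each array compared LPS-treated with untreated cells that matched in genotype and hours of culture. With 5 arrays per genotype, 1 per time point, the spread within a genotype holds the course over time as well as noise, and p-values measure only the spread between these arrays.

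Complement is a set of plasma proteins that tag microbes and cells for removal. C1qa, C1qb and C1qc encode the 3 chains of C1q, which recognises antibody and altered surfaces and starts the classical pathway; tissue macrophages are a main source of it. C3 is the protein on which all activation routes converge, Cfb supplies the protease of the alternative pathway that cleaves more C3, and properdin, encoded by Cfp, holds that enzyme together. C3ar1 and C5ar1 encode the receptors for the fragments C3a and C5a, and Serping1 encodes the C1 inhibitor, which blocks the proteases of the C1 complex. LPS is sensed by Tlr4, whose signal passes through the adapters MyD88 and TRIF (gene Ticam1).

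Probes of 4 of the genes are shown first, because each value below is the brightness of 1 such stretch of 60 bases. They were copied from the array files, run 5′ to 3′ in the sense of the transcript and are in lower case throughout. The 4 shown are the C1qb probe at chr4:136436578-136436637, the dimmer C3 probe at chr17:57343678-57343737, the Cfb probe at chr17:34993502-34993858 and the dimmer Serping1 probe at chr2:84605968-84607474, all on the minus strand of mm9. C3 and Serping1 have a second, brighter probe each, at chr17:57343416-57343475 and chr2:84605663-84605722 on the same strand, whose sequence is not printed. The values and fits of C3 and Serping1 below rest on these brighter probes, and the dimmer ones are named wherever they are used.
C1qb probe: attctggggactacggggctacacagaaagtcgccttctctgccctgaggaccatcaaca
C3 dimmer probe: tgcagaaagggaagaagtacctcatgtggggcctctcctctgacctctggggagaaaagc
Cfb probe: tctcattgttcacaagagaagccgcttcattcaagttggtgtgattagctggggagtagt
Serping1 dimmer probe: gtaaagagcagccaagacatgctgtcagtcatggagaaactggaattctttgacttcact
The C1qb and C3 probes cover 60 bases of the genome each, whereas the coordinates of the Cfb probe span 357 bases and those of the Serping1 probe shown 1507 bases. The position of the probes within exons was not annotated here.

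Sequence before the start of transcription was in the RefSeq promoter table (GRCm38.p6) for 6 of the 9 genes, namely C1qb, C1qc, C3, Cfp, C3ar1 and C5ar1. The 250 bases before the start are printed for C1qb and C1qc, whose courses under LPS ran together, and for C3, whose course ran apart from theirs. Searched on both strands were a STAT site of the GAS type (TTCNNNGAA), the paired repeat of an interferon-stimulated response element (GAAANNGAAA), the NF-kB site, the core of an ETS site as bound by PU.1 (GAGGAA) and a TATA box (TATAAA). Capitals mark a match. The regions are chr4:136886201-136886450, chr4:136892915-136893164 and chr17:57228137-57228386, all on the minus strand.
C1qb promoter: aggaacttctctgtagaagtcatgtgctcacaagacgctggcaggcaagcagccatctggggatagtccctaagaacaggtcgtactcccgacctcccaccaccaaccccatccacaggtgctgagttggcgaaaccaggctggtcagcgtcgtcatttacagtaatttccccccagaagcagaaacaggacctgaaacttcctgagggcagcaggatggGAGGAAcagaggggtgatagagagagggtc
C1qc promoter: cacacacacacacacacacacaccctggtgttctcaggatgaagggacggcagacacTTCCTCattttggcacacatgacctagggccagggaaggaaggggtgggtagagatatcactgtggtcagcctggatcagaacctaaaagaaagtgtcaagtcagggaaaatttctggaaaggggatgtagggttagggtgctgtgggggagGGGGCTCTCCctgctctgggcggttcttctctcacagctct
C3 promoter: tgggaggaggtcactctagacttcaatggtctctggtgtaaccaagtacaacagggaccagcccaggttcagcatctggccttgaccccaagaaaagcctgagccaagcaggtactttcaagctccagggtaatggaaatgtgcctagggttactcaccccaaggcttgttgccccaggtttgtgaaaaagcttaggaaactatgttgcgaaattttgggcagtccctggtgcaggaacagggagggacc
C1qb held 1 ETS core, 30 to 25 bases before the start. C1qc held 1 ETS core on the other strand, 193 to 188 bases before the start, and 1 NF-kB match at 41 to 32 bases. No letters of these motifs were found in the windows of C3, Cfp and C5ar1, and C3ar1 had a TATA box alone, 235 to 230 bases before the start. Of the 32851 windows of this length in the table, 23.3% held the ETS core, 12.4% the TATA box, 7.02% the GAS motif, 3.9% the NF-kB motif and 2.98% the paired repeat.

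The labels were examined before the results. Levels are in normalized log2 intensity, a scale on which 1 unit is a doubling of brightness. Without LPS, the Ticam1 level of TRIF-KO-labelled cells was 10.8 ± 0.28 and that of MyD88-KO cells 10.5 ± 0.18, while double-KO cells had 7.28 ± 0.04 and wild-type cells 10.7 ± 0.19 (SD, n = 5 each). Its transcript was thus at the wild-type level in the arrays labelled TRIF-KO, which are called TRIF-KO-labelled throughout. With no allele given, this level alone does not decide whether the label is right. Myd88 was bright in all groups, between 14.0 in double-KO and 14.4 in wild-type cells, so that its probe does not bear on the MyD88-KO label. Xist read 6.52 in TRIF-KO-labelled and 6.40 in double-KO cells, while MyD88-KO cells had 10.3 and wild-type cells 10.2, so sex differed between the groups. The 8 macrophage markers were above background on all arrays without LPS, with a mean level per array of 15.7 to 15.9 in double-KO and 15.9 to 16.1 in wild-type cells.

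The 9 genes did not follow 1 course under LPS. Cfb was higher under LPS from 4 h in all genotypes but double-KO. The C1q genes were lower late in TRIF-KO-labelled and wild-type cells, and C3ar1 in these and, by less, in MyD88-KO cells. C3 and Serping1 were higher late in MyD88-KO cells and, by less, in wild-type cells. In TRIF-KO-labelled cells C3 was higher at 4 and 8 h. C5ar1 was higher at 2 and 4 h in all genotypes but double-KO, and lower at 16 h in MyD88-KO and wild-type cells. Cfp was lower late in MyD88-KO cells. The log2 ratio of LPS over untreated, averaged over the 5 time points, passed limma's test (adjusted p under 0.05 over all genes) for 6 of the 9 genes in TRIF-KO-labelled cells, where 29% of all genes did. It passed for 3 in MyD88-KO cells (35.5% of all genes), for none in double-KO cells (0.332%) and for 4 in wild-type cells (36.4%). The share of the 9 genes was thus near that of all genes in MyD88-KO and wild-type cells, and their median response was -0.07, -0.05, -0.06 and -0.00 in TRIF-KO-labelled, MyD88-KO, double-KO and wild-type cells, against -0.02, 0.00, 0.00 and -0.01 over all genes. In double-KO cells none of the 9 passed at an unadjusted p under 0.05 either, where 1496 of 21963 genes did. With dye orientation as a term, which rests on 1 swapped array, no call was left in TRIF-KO-labelled and wild-type cells and that of Cfb alone in MyD88-KO cells.

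**Figure D1:**
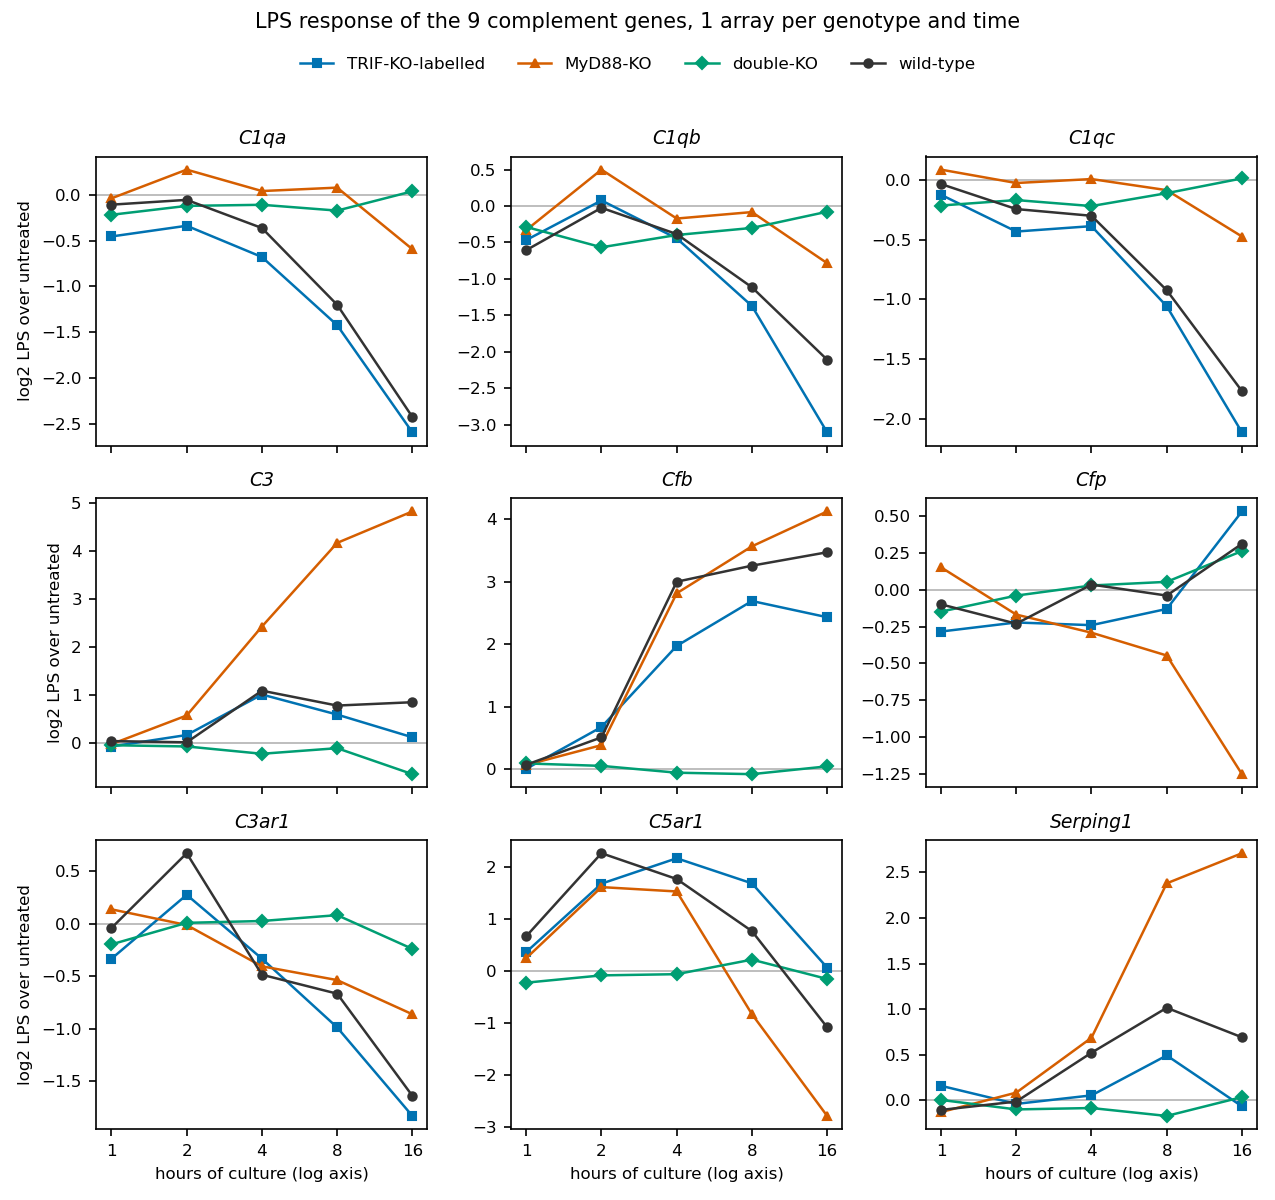
Log2 ratio of LPS-treated over untreated cells for each gene (vertical axis, scale differing between panels) against hours of culture on a log axis, 1 array per point, coloured by genotype. The double-KO points stay between -0.65 and 0.26, while C3 in MyD88-KO cells reaches 4.82 and C1qb in TRIF-KO-labelled cells -3.11 at 16 h.

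The C1q genes fell together in 2 of the 4 genotypes. For C1qa the log2 ratios at 1, 2, 4, 8 and 16 h were -0.46, -0.34, -0.68, -1.42 and -2.59 in TRIF-KO-labelled cells. In MyD88-KO cells they were -0.04, 0.27, 0.04, 0.08 and -0.59, in double-KO cells -0.22, -0.12, -0.11, -0.17 and 0.04, and in wild-type cells -0.11, -0.06, -0.36, -1.20 and -2.42. All 5 arrays of the TRIF-KO-labelled and of the wild-type cells were thus below 0, and the 16 h values correspond to 6.01-fold and 5.35-fold lower levels under LPS, against 1.51-fold lower in MyD88-KO cells. C1qc, the brightest of the 9 probes, read 16.03 under LPS and 18.15 without in TRIF-KO-labelled cells at 16 h, and 16.29 against 18.06 in wild-type cells. In MyD88-KO cells C1qc read 17.27 under LPS and 17.74 without, and in double-KO cells 17.16 against 17.15. C1qb had the largest single difference of the 3, a log2 ratio of -3.11 in TRIF-KO-labelled cells at 16 h, against -0.78 in MyD88-KO, -0.08 in double-KO and -2.11 in wild-type cells.

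Averaged over time, C1qa fell by 1.10 ± 0.22 (SE, adjusted p = 0.00246 in limma) in TRIF-KO-labelled cells and by 0.83 ± 0.22 (adjusted p = 0.00948) in wild-type cells. The averages of C1qb were -1.06 and -0.85 and those of C1qc -0.82 and -0.65 in the same 2 genotypes, and all of these passed the test. In MyD88-KO cells the 3 averages lay between -0.17 and -0.05 and in double-KO cells between -0.33 and -0.12, and none passed. The difference between MyD88-KO and wild-type cells was 0.78 ± 0.31 for C1qa, 0.67 ± 0.36 for C1qb and 0.56 ± 0.25 for C1qc, with adjusted p of 0.29, 0.41 and 0.33, so the genotypes were not shown to differ. Without the 8 h arrays none of the 3 wild-type averages passed (adjusted p = 0.0735 for C1qa, 0.106 for C1qb and 0.0808 for C1qc), nor did C1qb in TRIF-KO-labelled cells (0.0642) or, without the 4 h arrays, in wild-type cells (0.0521). With median centring in place of loess the wild-type averages of C1qa, C1qb and C1qc were -0.57, -0.54 and -0.19 (adjusted p = 0.0802, 0.125 and 0.555) and the TRIF-KO-labelled average of C1qc -0.48 (0.147). Without the time point as a block the 3 wild-type averages missed as well (0.0505 to 0.0706), and with scan day as a block all 6 did (0.0824 to 0.203).

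The fall grew with time. A slope was fitted per genotype over the log2 of the hours, so that it gives the change of the log2 ratio per doubling of time. It passed for 5 of the 9 genes in TRIF-KO-labelled cells (7.05% of all genes), for 4 in MyD88-KO cells (10.3%), for none in double-KO cells (0%) and for 4 in wild-type cells (5.52%). In the 3 genotypes with calls the share of the 9 was larger than that of all genes, the 9 having been chosen with earlier results in view. In double-KO cells no slope of the 9 passed at an unadjusted p under 0.05, where 54 of 21960 genes did. C1qa had slopes of -0.53 ± 0.11 in TRIF-KO-labelled and -0.58 ± 0.11 in wild-type cells, with adjusted p of 0.009 and 0.0061. C1qc had -0.46 and -0.42, and both passed, but with median centring neither did (adjusted p = 0.0527 and 0.144). The slope of C1qb passed in TRIF-KO-labelled cells alone (-0.67 ± 0.16, adjusted p = 0.02), with -0.41 ± 0.16 in wild-type cells (adjusted p = 0.17). Without the 16 h arrays the slopes of C1qb and C1qa in TRIF-KO-labelled cells were both -0.32 (adjusted p = 0.262 and 0.0594). Without the 2 h arrays neither these (0.114 and 0.0904) nor the wild-type slopes of C1qa and C1qc (0.0615 and 0.0595) passed, and C1qb also missed without the 8 h arrays (0.0653).

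C3 was abundant in wild-type cells without LPS, and LPS raised it in MyD88-KO cells. For its brighter probe the log2 ratios at 1, 2, 4, 8 and 16 h were -0.08, 0.16, 1.01, 0.59 and 0.12 in TRIF-KO-labelled cells. In MyD88-KO cells they were -0.03, 0.57, 2.42, 4.16 and 4.82, in double-KO cells -0.05, -0.07, -0.23, -0.11 and -0.65, and in wild-type cells 0.04, 0.01, 1.09, 0.78 and 0.85. The MyD88-KO values of 4, 8 and 16 h stand above all values of the other genotypes. Spots of this probe were saturated under LPS on the MyD88-KO arrays of 8 and 16 h, so these 2 ratios are lower limits for it. The dimmer probe, which was saturated on no array, gave -0.25, 0.63, 2.14, 3.66 and 4.15 in MyD88-KO cells, or 17.8-fold at 16 h, and -0.21, 0.28, 0.93, 0.54 and 0.49 in wild-type cells.

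The levels behind these ratios differ in another way. At 16 h the brighter C3 probe read 18.80 under LPS and 13.98 without in MyD88-KO cells, and 18.04 under LPS and 17.20 without in wild-type cells. The value of 18.80 is a lower limit, since the probe was saturated there. The dimmer probe read 18.78 and 14.62 in MyD88-KO cells, against 16.83 and 16.34 in wild-type cells. On this probe MyD88-KO cells were thus above wild-type cells under LPS and below them without. In untreated MyD88-KO cells the 2 probes differed in their course, since the brighter one read 14.49 at 1 h and 13.98 at 16 h and the dimmer one 13.37 and 14.62.

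Averaged over time, C3 rose by 2.39 ± 0.43 (adjusted p = 0.00171) in MyD88-KO cells. This and all later C3 fits rest on the brighter probe, so their estimates carry the limit of its saturation at 8 and 16 h in these cells. In fits of all arrays with the dimmer probe, the calls of the MyD88-KO average and slope were kept. So were those of the average against double-KO and of the slope against wild-type cells. The averages of 0.36 ± 0.43 in TRIF-KO-labelled, -0.22 ± 0.43 in double-KO and 0.55 ± 0.43 in wild-type cells did not pass. Its slope was 1.33 ± 0.11 per doubling of time in MyD88-KO cells (adjusted p = 4.6e-05), against 0.24 ± 0.11 in wild-type cells (adjusted p = 0.3). The difference of these slopes was 1.09 ± 0.16 and passed (adjusted p = 0.017), as did 1.08% of all genes in that comparison. The difference was 1.02 to 1.23 and missed the threshold when the arrays of 1, 2, 8 or 16 h were left out (adjusted p of 0.0606 to 0.0751), and was kept without those of 4 h (adjusted p = 0.0152). The MyD88-KO arrays of 1 and 2 h were scanned on another day than the later ones, and with scan day as a block the slope in MyD88-KO cells was 1.08 (adjusted p = 0.077) and the difference from wild-type 0.84 (adjusted p = 0.25).

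Factor B responded in all genotypes but double-KO. The log2 ratios of Cfb at 1, 2, 4, 8 and 16 h were 0.01, 0.68, 1.98, 2.69 and 2.43 in TRIF-KO-labelled cells and 0.07, 0.39, 2.82, 3.57 and 4.13 in MyD88-KO cells. Those of double-KO cells were 0.10, 0.06, -0.05, -0.07 and 0.05, and those of wild-type cells 0.08, 0.51, 3.00, 3.26 and 3.47. At 4 h and later the values of the other 3 genotypes were all above 1.9 and those of double-KO cells within 0.1 of 0. The 16 h values correspond to 5.41-fold, 17.5-fold and 11.1-fold higher levels under LPS in TRIF-KO-labelled, MyD88-KO and wild-type cells.

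Cfb also changed in culture without LPS. From 1 to 16 h its untreated level went up 22.7-fold in TRIF-KO-labelled cells, 17.3-fold in MyD88-KO cells, 3.73-fold in double-KO cells and 11.2-fold in wild-type cells, with 1 array at each end and no test. The untreated levels at 16 h were 15.00, 13.86, 11.12 and 14.81 in that order of genotypes. Averaged over time, LPS raised Cfb by 1.56 ± 0.35 in TRIF-KO-labelled cells (adjusted p = 0.0052), by 2.19 ± 0.35 in MyD88-KO cells (adjusted p = 0.001) and by 2.06 ± 0.35 in wild-type cells (adjusted p = 0.00082). The double-KO average was 0.02 ± 0.35. The slopes of 0.69, 1.13 and 0.95 per doubling of time in TRIF-KO-labelled, MyD88-KO and wild-type cells passed, and that of -0.02 in double-KO cells did not. Without the 8 h arrays the TRIF-KO-labelled average was 1.27 (adjusted p = 0.0593), and its slope missed without the arrays of 1, 2 or 8 h (0.0706 to 0.219), as did the wild-type slope without those of 1 h (0.0525). With scan day as a block the MyD88-KO slope was 0.59 (adjusted p = 0.473). With the arrays of 4, 8 and 16 h alone no Cfb slope passed, the values being 0.23, 0.65 and 0.24.

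**Figure D2:**
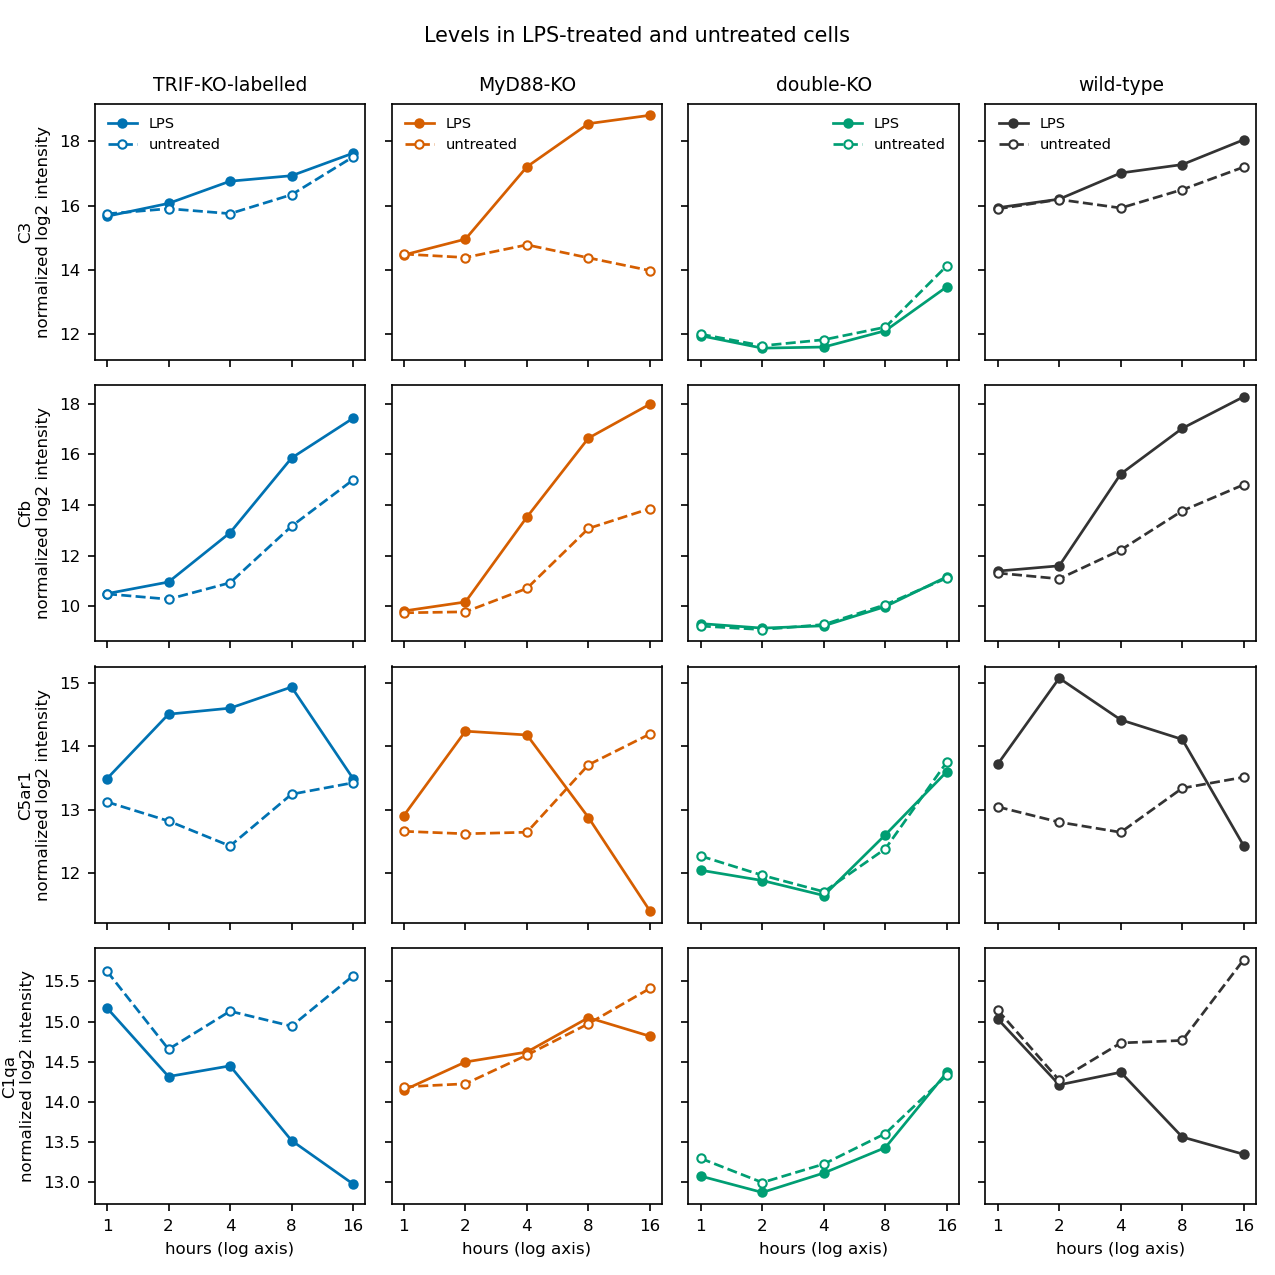
Normalized log2 intensity (vertical axis, shared along a row) of C3, Cfb, C5ar1 and C1qa against hours of culture on a log axis, with LPS as filled points and without as open points, 1 array per pair and 1 column per genotype. At 16 h untreated C3 is at 13.98 in MyD88-KO cells and at 17.20 in wild-type cells, and untreated Cfb climbs in all 4 columns.

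Properdin moved little, except late in MyD88-KO cells. The log2 ratios of Cfp at 1, 2, 4, 8 and 16 h were 0.15, -0.17, -0.29, -0.45 and -1.25 in MyD88-KO cells and -0.10, -0.23, 0.03, -0.04 and 0.31 in wild-type cells. At 16 h the ratio was 0.53 in TRIF-KO-labelled and 0.26 in double-KO cells, so that MyD88-KO cells alone had less Cfp under LPS at that time. The average response of Cfp passed in no genotype, the lowest being -0.40 ± 0.16 in MyD88-KO cells (adjusted p = 0.066). The slope in MyD88-KO cells was -0.31 ± 0.06 (adjusted p = 0.004) and differed from that of wild-type cells by -0.41 ± 0.08 (adjusted p = 0.035). With median centring the MyD88-KO slope was -0.08 (adjusted p = 0.8) and the difference -0.24 (adjusted p = 0.86), and leaving out the arrays of any 1 time point ended the call of the difference (adjusted p of 0.0605 to 0.185). With scan day as a block neither the slope (adjusted p = 0.124) nor the difference (0.0903) passed.

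The receptor of C3a followed the C1q genes in TRIF-KO-labelled and wild-type cells and was also lower from 4 h in MyD88-KO cells. That of C5a took a course of its own. The log2 ratios of C3ar1 at 1, 2, 4, 8 and 16 h were -0.33, 0.28, -0.33, -0.99 and -1.83 in TRIF-KO-labelled cells, 0.14, -0.01, -0.41, -0.54 and -0.86 in MyD88-KO cells and -0.04, 0.67, -0.49, -0.67 and -1.64 in wild-type cells. The 5 double-KO values lay between -0.24 and 0.08. The average of C3ar1 was -0.64 ± 0.17 (adjusted p = 0.011) in TRIF-KO-labelled and -0.43 ± 0.17 (adjusted p = 0.057) in wild-type cells, and its slopes of -0.43 and -0.45 passed in both (adjusted p = 0.034 and 0.029). Without the 16 h or the 8 h arrays the average in TRIF-KO-labelled cells did not pass (-0.34 and -0.56, adjusted p = 0.121 and 0.0932), nor did it with scan day as a block (0.115), and both slopes missed the threshold when the arrays of 2, 4, 8 or 16 h were left out. In MyD88-KO cells the average was -0.34 ± 0.17 and did not pass (adjusted p = 0.133). With the arrays of 4, 8 and 16 h alone, chosen after the data were seen, it was -0.60 and passed (adjusted p = 0.0154).

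C5ar1 had log2 ratios of 0.36, 1.68, 2.17, 1.68 and 0.07 at 1, 2, 4, 8 and 16 h in TRIF-KO-labelled cells. In MyD88-KO cells they were 0.25, 1.61, 1.53, -0.83 and -2.78, in double-KO cells -0.22, -0.08, -0.06, 0.22 and -0.15, and in wild-type cells 0.67, 2.26, 1.77, 0.77 and -1.08. The level under LPS was thus 3.2-fold, 3.06-fold and 4.8-fold higher at 2 h in TRIF-KO-labelled, MyD88-KO and wild-type cells. At 16 h it was 6.88-fold lower in MyD88-KO and 2.11-fold lower in wild-type cells, and 1.05-fold higher in TRIF-KO-labelled cells. Both levels moved in MyD88-KO cells. From 1 to 16 h the untreated one went from 12.66 to 14.19, 2.89-fold up, and that under LPS from 12.91 to 11.41. Untreated C5ar1 went up 1.23-fold in TRIF-KO-labelled, 2.79-fold in double-KO and 1.38-fold in wild-type cells, with 1 array at each end and no test. Values of both signs cancel in an average, and the average passed in TRIF-KO-labelled cells alone (1.19 ± 0.35, adjusted p = 0.019). It was -0.04 ± 0.35 in MyD88-KO and 0.88 ± 0.35 (adjusted p = 0.061) in wild-type cells. Without the 16 h arrays the wild-type average was 1.37 and passed (adjusted p = 0.00425), and the TRIF-KO-labelled one missed without the arrays of 2, 4 or 8 h (0.0559 to 0.117) and was 0.47 with scan day as a block (0.517). No slope of C5ar1 passed over all 5 time points. With the arrays of 4, 8 and 16 h alone, an alternative chosen after the data were seen, the slopes were -2.15 in MyD88-KO (adjusted p = 0.0241) and -1.42 in wild-type cells (adjusted p = 0.0134).

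Serping1 was dim. Its brighter probe was well above background under LPS on 2 of 5 arrays of TRIF-KO-labelled, 5 of MyD88-KO, 1 of double-KO and 5 of wild-type cells, and without LPS on 3, 5, 3 and 4. The log2 ratios at 1, 2, 4, 8 and 16 h were -0.13, 0.08, 0.69, 2.38 and 2.71 in MyD88-KO cells and -0.11, -0.01, 0.52, 1.01 and 0.69 in wild-type cells. In TRIF-KO-labelled cells they lay between -0.07 and 0.49 and in double-KO cells between -0.17 and 0.04. The dimmer probe gave 2.22 and 2.30 at 8 and 16 h in MyD88-KO cells and was not well above background on any untreated array of the other genotypes. LPS raised Serping1 in MyD88-KO cells by 1.15 ± 0.26 on average (adjusted p = 0.00464) and by 0.80 ± 0.09 per doubling of time (adjusted p = 0.000245). The slope differed from that of wild-type cells by 0.54 ± 0.12 (adjusted p = 0.0557), just short of the threshold. Without the 8 h arrays the average was 0.84 (adjusted p = 0.0756). The MyD88-KO slope missed with scan day as a block (0.85, adjusted p = 0.0883) and with the arrays of 4, 8 and 16 h alone (1.01, adjusted p = 0.103). In the authors' deposited log ratio, which lacks the offset of the background correction used here, the wild-type average was 0.94 and passed (adjusted p = 0.0413). That ratio was also further from 0 on arrays where the probe was not well above background under LPS. In double-KO cells it was -0.83 at 4 h and -0.87 at 8 h, against -0.08 and -0.17 here. In TRIF-KO-labelled cells it was 1.55 at 8 h, against 0.49 here. The part of the offset in these values was not tested.

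Whether the responses differed between genotypes was tested on the averages over time. Between double-KO and wild-type cells 1 of the 9 genes differed, where 12% of all genes did, and between MyD88-KO and double-KO cells 3 did, against 10.1%. None passed between TRIF-KO-labelled and double-KO cells (6.63%), nor between TRIF-KO-labelled and wild-type, MyD88-KO and wild-type or MyD88-KO and TRIF-KO-labelled cells, comparisons in which limma called 0% of all genes. At an unadjusted p under 0.05 the counts among the 9 were 5 for TRIF-KO-labelled against double-KO, 0 for TRIF-KO-labelled against wild-type, 3 for MyD88-KO against wild-type and 6 for MyD88-KO against TRIF-KO-labelled cells. Over all genes the counts at that threshold were 5328 and 1648 of 21963, and 3186 and 4093 of 21962, in the same order. The comparisons share groups, so their values are not independent of each other.

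Cfb responded less in double-KO than in wild-type cells by a difference of -2.05 ± 0.50 (adjusted p = 0.021). Between MyD88-KO and double-KO cells the difference was 2.61 ± 0.61 for C3 (adjusted p = 0.025), 2.18 ± 0.50 for Cfb (adjusted p = 0.024) and 1.21 ± 0.37 for Serping1 (adjusted p = 0.0499). These 4 calls were not kept without the time point as a block (adjusted p of 0.18 for Cfb against wild-type and of 0.1, 0.17 and 0.16 for C3, Cfb and Serping1), and the pairing by time does not hold for double-KO ratios. Nor were they kept with slide as a random block (0.12, 0.07, 0.1 and 0.12) or without the arrays of 4, 8 or 16 h (0.059 to 0.294), and Serping1 also missed without those of 2 h (0.0588). All double-KO arrays were scanned on the second day and all wild-type arrays on the first, so scan day and genotype cannot be told apart between them. With scan day as a block the difference was -3.70 for Cfb (adjusted p = 0.022), but MyD88-KO cells alone were scanned on both days, with their 1 and 2 h arrays on the first and the later ones on the second, so that this term holds their time course. Within the second scan day, which holds the MyD88-KO arrays of 4, 8 and 16 h and all double-KO arrays, and so changes day and time together, the differences were 4.13 for C3, 3.53 for Cfb and 2.00 for Serping1, with adjusted p of 0.0165, 0.00479 and 0.0418, and C3ar1 passed as well (-0.56, adjusted p = 0.044).

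**Figure D3:**
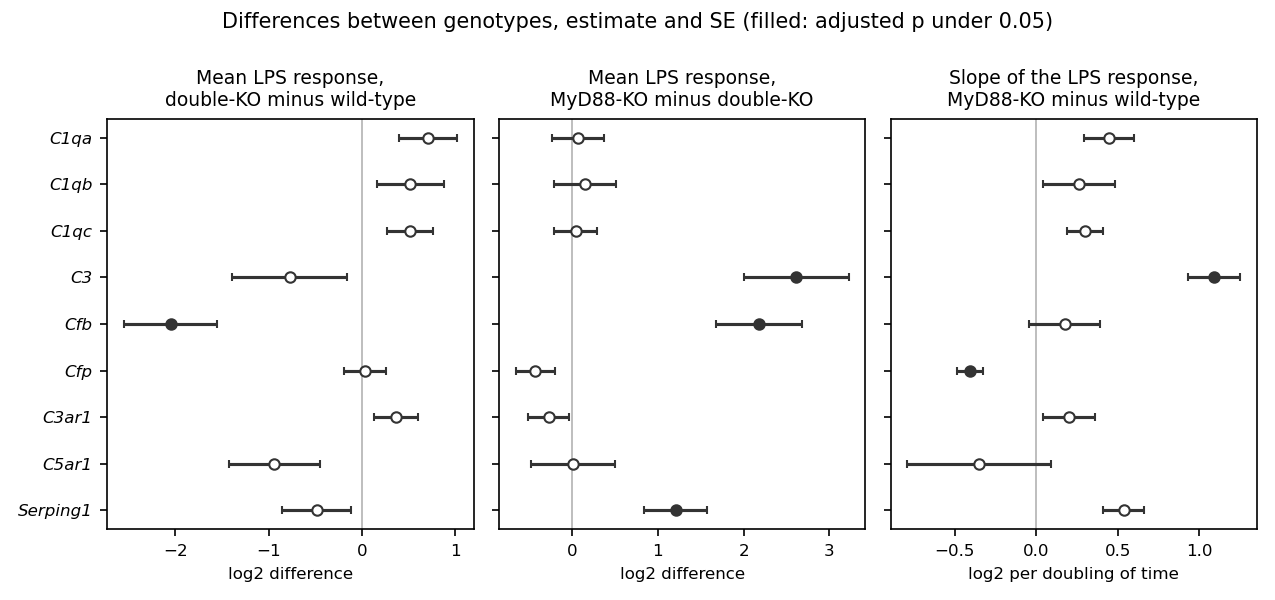
Estimated differences between genotypes (horizontal axis, log2, bars of 1 SE) for each of the 9 genes in the mean LPS response of double-KO against wild-type, the mean response of MyD88-KO against double-KO and the slope of MyD88-KO against wild-type cells. Filled points passed the test: Cfb at -2.05, then C3, Cfb and Serping1 at 2.61, 2.18 and 1.21, then C3 and Cfp at 1.09 and -0.41.

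Averages over 5 time points dilute differences that appear late. With the arrays of 4, 8 and 16 h alone, again chosen after the data were seen, MyD88-KO exceeded TRIF-KO-labelled cells by 3.23 for C3 (adjusted p = 0.0125), 1.14 for Cfb (adjusted p = 0.0181) and 1.77 for Serping1 (adjusted p = 0.0248). MyD88-KO exceeded wild-type cells by 2.90 for C3 (adjusted p = 0.0363). TRIF-KO-labelled cells differed from double-KO cells by 2.39 for Cfb (adjusted p = 0.000661), -1.48 for C1qa (adjusted p = 0.0381) and -1.01 for C3ar1 (adjusted p = 0.0229). All late MyD88-KO and all double-KO arrays were scanned on the second day and all TRIF-KO-labelled and wild-type arrays on the first, so scan day and genotype cannot be told apart in these 3 comparisons.

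The genotypes also differed before LPS. In untreated cells 7 of the 9 genes were lower in double-KO than in wild-type cells, where 25.7% of all genes differed and 11% were lower. Between MyD88-KO and wild-type cells 2 of the 9 differed (9.91% of all genes) and between TRIF-KO-labelled and wild-type cells none did (0.423%). In the latter comparison 1 of the 9 passed at an unadjusted p under 0.05, as did 2891 of 21963 genes. In bulk RNA, fewer cells that make a transcript and less of it per cell cannot be told apart.

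C3 had the largest of these differences among the 9. Its untreated levels at 1, 2, 4, 8 and 16 h were 12.01, 11.65, 11.84, 12.23 and 14.13 in double-KO cells, 14.49, 14.39, 14.78, 14.38 and 13.98 in MyD88-KO cells, and 15.90, 16.19, 15.93, 16.50 and 17.20 in wild-type cells. On this brighter probe neither knockout overlapped wild-type, while on the dimmer one the MyD88-KO values of 8 and 16 h (14.60 and 14.62) were above the wild-type value of 2 h (14.44). The level was lower by 3.97 ± 0.32 on the log2 scale, 15.7-fold, in double-KO cells (adjusted p = 6.9e-07) and 4.09-fold lower in MyD88-KO cells (adjusted p = 0.0027). Both calls held under the 12 alternatives run for untreated levels, which did not include scan day or slide as a fixed block. The MyD88-KO difference was -1.31 on the dimmer probe (adjusted p = 0.00122), against -2.03 on the brighter one. In TRIF-KO-labelled cells the untreated level of C3 averaged 16.25 ± 0.75, against 16.34 ± 0.54 in wild-type cells (SD, n = 5 each). The C3 probe lies 0.934 Mb from that of Ticam1 on chromosome 17. Of the 72 genes with a probe within 2 Mb of Ticam1, 22.2% differed between untreated double-KO and wild-type cells, near the 25.7% of all genes, and C3 was the lowest of them. Whether the place of C3 near Ticam1 bears on its level was not tested.

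The other members that were lower in untreated double-KO cells were Cfb (by 7.4-fold, adjusted p = 2.2e-05), C1qa (2.72-fold), C1qb (1.77-fold), Cfp (1.65-fold), C5ar1 (1.57-fold) and C1qc (1.47-fold). C1qa read 13.30, 13.00, 13.23, 13.61 and 14.33 in double-KO cells at 1 to 16 h, against 15.14, 14.27, 14.73, 14.76 and 15.77 in wild-type cells, so that only the 16 h double-KO value reached the lowest wild-type one. Cfp spanned 15.47 to 15.86 in double-KO and 16.27 to 16.62 in wild-type cells with no overlap. Without the time point as a block C1qb, Cfb and C5ar1 did not pass (adjusted p = 0.052, 0.067 and 0.26), and C5ar1 also missed the threshold without the arrays of 2, 4 or 8 h. Sex and scan day differed between these 2 groups as well and cannot be told apart from genotype here. In TRIF-KO-labelled cells, which shared the Xist level of the double-KO cells, the untreated differences of the 9 genes from wild-type cells lay between -0.67 and 0.28. These cells differed from the double-KO cells in label and scan day, and the part of sex in the untreated differences was not tested.

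Of the 9 genes, Serping1 alone passed as higher in an untreated knockout. It read 7.92, 7.90, 7.90, 8.06 and 8.47 in untreated MyD88-KO cells, against 7.29, 7.25, 7.36, 7.31 and 7.15 in wild-type cells, with no overlap. The fitted difference was 0.80 ± 0.11, or 1.74-fold (adjusted p = 0.000533). With each array scaled to its 75th percentile it was 0.59 (adjusted p = 0.7). The MyD88-KO cells also had more transcript of neutrophil and precursor genes, with a mean level of 12.01 to 12.32 over the 7 markers per array, against 11.12 to 11.38 in wild-type cells. Ly6g ran the other way, since its level was 9.07 ± 0.96 in MyD88-KO cells, against 10.3 ± 0.37 in the wild type (SD, n = 5 each). Of these markers 6 of 7 were above background on all untreated arrays. The 6 markers of fibroblasts and stroma averaged 7.28 to 7.62 in MyD88-KO and 7.21 to 7.51 in wild-type cells, with Lum at background on all untreated arrays. They went both ways. Col1a1 and Col1a2 were higher in MyD88-KO cells (7.76 and 8.35, against 7.36 and 7.89 in wild-type cells), and Pdgfrb was lower (7.95 against 8.37). Col3a1 (7.01 against 7.02), Dcn (6.93 against 6.86) and Lum (6.52 against 6.66) were dim in both. The part of other cell types in the Serping1 difference was not tested.

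**Figure D4:**
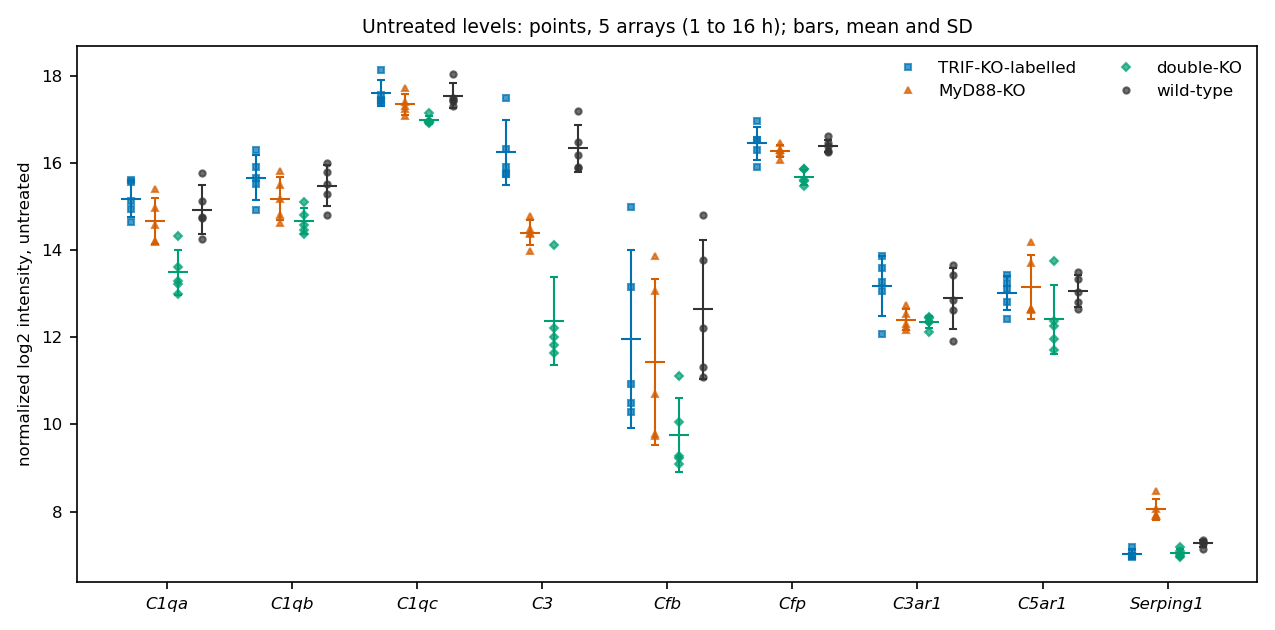
Untreated level (vertical axis, normalized log2 intensity) of each gene in the 4 genotypes, with 1 point per array from 1 to 16 h and bars for mean and SD; the MyD88-KO point of 2 h comes from the other dye. C3 averages 14.41 in MyD88-KO cells, 12.37 in double-KO cells and 16.34 in wild-type cells.

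Among 32 other complement genes that were measured, of 43 with a probe, the average response passed for 9 in TRIF-KO-labelled, 11 in MyD88-KO, 0 in double-KO and 13 in wild-type cells. The shares of all genes that passed were 29%, 35.5%, 0.332% and 36.4% in that order. The genes described below are among those of the list that passed in a difference between genotypes or in a slope. The alternative settings were run for the 9 main genes alone, so the calls of these other genes were not checked under them. C1ra, a protease of the C1 complex, rose with time in MyD88-KO (slope 0.55 ± 0.10) and wild-type cells (0.64 ± 0.10), and its response was -1.10 ± 0.34 in the difference of double-KO from wild-type cells (adjusted p = 0.047). C1rb, its close copy, whose probe may not tell the 2 apart, gave -0.55 ± 0.14 there (adjusted p = 0.022). The slope of C1ra differed between double-KO and wild-type cells too (-0.69 ± 0.13, adjusted p = 0.039), as 0.537% of all genes did. None of the 9 main genes passed there at an adjusted p. At an unadjusted p under 0.05, 6 of the 9 did, as did 2059 of 21960 genes. C2, which supplies the protease of the classical pathway, had log2 ratios of 0.55, 1.97 and 2.34 at 4, 8 and 16 h in MyD88-KO cells, against 0.44, 0.74 and 0.23 in wild-type cells, and exceeded double-KO cells by 1.01 ± 0.30 (adjusted p = 0.047). C4b, the partner of C2 in that enzyme, went opposite ways. It read 0.13, 1.87 and 2.18 in MyD88-KO cells at those times, against -0.28, -0.76 and -2.11 in TRIF-KO-labelled and 0.20, -0.04 and -1.14 in wild-type cells, and its slope was higher in MyD88-KO than in wild-type cells by 0.90 ± 0.17 (adjusted p = 0.034).

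Of the receptors and regulators described here, Vsig4, C5ar2, Cd93, Itgam and Cd55 each fell in at least 1 genotype, on average or with time. Vsig4, a macrophage receptor for C3 fragments, fell with time in TRIF-KO-labelled, MyD88-KO and wild-type cells (slopes of -0.26, -0.31 and -0.32), and untreated it was 4.84-fold higher in double-KO than in wild-type cells. C5ar2, the second receptor of C5a, fell on average by 1.23 ± 0.23 in TRIF-KO-labelled, by 0.75 ± 0.23 in MyD88-KO and by 1.23 ± 0.23 in wild-type cells. The response of C5ar2 in double-KO cells exceeded that in wild-type cells by 1.22 ± 0.32 (adjusted p = 0.029), and that in TRIF-KO-labelled cells stood below that in double-KO cells by -1.22 ± 0.32 (adjusted p = 0.039). Cd93, once described as a C1q receptor, fell in MyD88-KO cells by 1.43 ± 0.25 and differed from double-KO cells by -1.33 ± 0.35 (adjusted p = 0.035). Itgam, a chain of complement receptor 3, had a slope of -0.40 ± 0.09 in MyD88-KO cells, which was below that of wild-type cells by -0.71 ± 0.13 (adjusted p = 0.03). Fcna (-0.34) in TRIF-KO-labelled cells, and Cd55 (-0.47) and C1rl (0.62) in wild-type cells, had slopes that passed. Ptx3, a soluble pattern receptor that binds C1q, had log2 ratios of 2.91, 4.90 and 4.92 at 2, 4 and 8 h in wild-type cells. It was well above background in untreated wild-type cells on 2 of 5 arrays and on no double-KO array, so these ratios have no firm base.

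Across the 20 arrays the log2 ratios of the 9 genes fell into groups that share these time courses, which is a description over arrays that hold the same time points. C1qa correlated with C1qc at r = 0.98 and with C1qb at 0.95, and the 3 correlated with C3ar1 at 0.84 to 0.86. C3 correlated with Serping1 at 0.94, with Cfb at 0.76 and with Cfp at -0.74. The genes outside complement with the most similar course over the 20 arrays were Lsp1 (r = 0.96) and Cadm1 (0.96) for C1qa, Srebf2 (0.95) and Napsa (0.94) for C1qb, and Lsp1 (0.97) and Cadm1 (0.96) for C1qc. They were Nos2 (0.98) and Ass1 (0.97) for Cfb, Hat1 (0.97) and an unnamed probe (0.96) for C3, Heatr9 (0.98) and 1600014C10Rik (0.97) for Serping1, Wnk1 (0.94) and Arhgap15 (0.94) for C3ar1, Cand1 (0.96) and Sfpq (0.93) for C5ar1, and Mboat7 (0.92) and H13 (0.91) for Cfp. Nos2 encodes the inducible nitric oxide synthase and Ass1 an enzyme that regenerates its substrate arginine.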

How the data were processed

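RNA of 20 arrays with 2 colours was measured (LPS in Cy5 on 19 and in the other dye for MyD88-KO at 2 h, whose sign was turned). The deposited files are, per the file headers, output of Agilent Feature Extraction 10.10.1.1 and give mean and background intensity per spot. The authors' deposited log10 ratio is Cy5 over Cy3 of processed intensities, and was used as an alternative after conversion to log2. In limma 3.58.1 (R 4.3.3, data.table version 1.17.8) intensities were corrected by normexp (offset 50) and loess, and spots of a probe were averaged, saturated spots included. Probes well above background in a channel on at least 3 arrays were kept (28304 of 39429), and the brightest probe stood for its gene (21963 genes, 235 with a missing ratio). The spots of an array that were well above background in a channel made up 57.0% to 70.5%.

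Log2 ratios of all 20 arrays were fitted by genotype with time point as a block, slopes by genotype, and untreated Cy3 levels of 19 arrays (between-array quantile step) by genotype and time. P-values were adjusted over all genes by Benjamini and Hochberg. Deviations at the same time point correlated at 0.22 to 0.83 between TRIF-KO-labelled, MyD88-KO and wild-type ratios, at -0.20 to 0.13 with double-KO ratios, and at 0.13 to 0.81 for untreated levels. The named genes are the 9, listed complement genes past a genotype difference or a slope, and for each of the 9 the 2 genes of most similar course. A listed gene that the rule names is not reported here. The 9 genes and the lists were chosen with earlier results of these data known. The fits were tested on simulated data.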

Additional observations from a re-analysis of the deposited data

Results flagged for a closer look

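Of 108 sets of 5 arrays of 1 genotype (log2 ratio, LPS level and untreated level of each of the 9 genes), 8 had 1 array far from the other 4, where chance gives about 1 in 20. All of these were arrays of 16 h, and the arrays of a set differ in time. The C1qc untreated level at 16 h was 18.15 in TRIF-KO-labelled cells (next highest 17.58), 17.15 in double-KO cells (16.98) and 18.06 in wild-type cells (17.49), and under LPS it was 17.16 in double-KO cells (16.82). C3 at 16 h in double-KO cells stood at 13.48 under LPS and 14.13 without, with 12.12 and 12.23 as the next highest. Untreated Serping1 in MyD88-KO cells was 8.47 at 16 h (next 8.06), and the log2 ratio of Cfp in TRIF-KO-labelled cells was 0.53 (next -0.13).

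Differences between genotypes that passed the test were those in the response of C3 (2.61), Cfb (2.18), Serping1 (1.21), C2 (1.01) and Cd93 (-1.33) in MyD88-KO against double-KO cells. In double-KO against wild-type cells they were Cfb (-2.05), C1ra (-1.10), C1rb (-0.55), C5ar2 (1.22) and Ptx3 (-2.74), the last with no double-KO array above background. C5ar2 differed by -1.22 in TRIF-KO-labelled against double-KO cells. Slopes differed in MyD88-KO against wild-type cells for C3 (1.09), Cfp (-0.41), C4b (0.90) and Itgam (-0.71), and in double-KO against wild-type cells for C1ra (-0.69).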

How the results depend on the processing

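No alternative reversed the sign of a called value. Of 672 recomputed values of the 41 called ones, 517 kept their call and 155 lost it. Kept in all settings run for them were 5 calls, all of untreated levels. These were C3, C1qa, C1qc and Cfp in double-KO and C3 in MyD88-KO against wild-type cells. Untreated levels had 12 alternatives, against 17 to 19 for responses and slopes. Slide as a fixed block, scan day as a block and dye orientation were not run on them, so these 5 calls faced fewer settings. Of 2361 recomputed values of uncalled results, 43 passed. The counts of the 9 genes that passed changed by more than 1.5 times as follows. Without the replicate block, the average response gave 3 in TRIF-KO-labelled and 1 in wild-type cells, 0 in double-KO against wild-type, 0 in MyD88-KO against double-KO, and 4 in untreated double-KO against wild-type cells. With slide as a random block the counts were 0 in double-KO against wild-type, 0 in MyD88-KO against double-KO, 3 for the slope in TRIF-KO-labelled cells and 1 for the slope difference of MyD88-KO from wild-type. With slide as a fixed block, averages gave 1 in TRIF-KO-labelled cells, 1 in MyD88-KO cells and 0 in wild-type cells, 0 in both differences, in the slopes of TRIF-KO-labelled and MyD88-KO cells and in the slope difference of MyD88-KO from wild-type, and 1 for the slope in wild-type cells. Scan day as a block gave 3 in TRIF-KO-labelled cells, 3 in double-KO against wild-type, 1 in TRIF-KO-labelled against double-KO, 0 for the MyD88-KO slope and its difference from wild-type, and 1 for the slope of double-KO against wild-type. Dye orientation as a term left 0, 1 and 0 in TRIF-KO-labelled, MyD88-KO and wild-type cells, but a single array carries the swap. Median centring gave 2 in wild-type cells, 0 in double-KO against wild-type, 1 in TRIF-KO-labelled against double-KO and 1 for the slope difference of MyD88-KO, and the authors' log ratio 1 for the last. Scaling to the 75th percentile gave 1 in untreated MyD88-KO against wild-type. The arrays of 4, 8 and 16 h alone, added after the data were seen, gave 5 in MyD88-KO cells, 1 in MyD88-KO against wild-type, 3 against TRIF-KO-labelled, 3 in TRIF-KO-labelled against double-KO, 2 in double-KO against wild-type, 2 for the MyD88-KO slope and 0 for its difference. Leaving out 1 time point or the swapped array gave averages of 2 to 6, 2 to 4 and 1 to 5 in TRIF-KO-labelled, MyD88-KO and wild-type cells, 0 to 1 in double-KO against wild-type and in TRIF-KO-labelled against double-KO, 0 to 3 in MyD88-KO against double-KO, slopes of 1 to 5, 4 to 5 and 1 to 5, slope differences of 0 to 2 for MyD88-KO and 0 to 3 for double-KO, and untreated counts of 2 to 3 and 6 to 8 in MyD88-KO and double-KO cells. The cause of these changes was not tested. Slides hold mostly 1 genotype at neighbouring times, and signal over background limits Serping1.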
